A study of Mus musculus with 14 samples.

Results

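The genes described here build the first sugars of mucin-type O-glycans and attach sialic acid to glycans. They are the genes of the estimated count table whose names put them in the Galnt, St3gal, St6gal, St6galnac or St8sia families, together with Cmah, Cmas, Gne, Nans and C1galt1. Of the 22430 genes in the table, 42 have such a name. All 42 are annotated as protein coding, and 33 of them were among the 14269 genes with enough counts to be tested. Of the other 9, Galnt5, Galnt13 and St6gal2 had no count in any library, and Galnt9, Galnt14, St6galnac1, St8sia1, St8sia3 and St8sia5 had 5 to 17 estimated counts summed over all 14 libraries, with at most 7 in 1 library.

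RNA was sequenced from the intima of the thoracic aorta, each library being a pool of 12 to 14 mice of 1 genotype, and every mouse lacked apolipoprotein E (Apoe-/-), which makes mice prone to atherosclerosis. The ubiquitous progerin group (3 libraries) was homozygous for the G609G allele of Lmna (LmnaG609G/G609G) and makes progerin, the shortened form of lamin A behind Hutchinson-Gilford progeria syndrome, in all tissues that use the gene. The wild-type control (4 libraries) had normal Lmna (Lmna+/+). In the VSMC progerin group (3 libraries) mice carried the LCS allele on both copies (LmnaLCS/LCS) and a Cre recombinase driven by the SM22α promoter (SM22αCre), a promoter chosen to confine progerin to vascular smooth muscle cells (VSMC). The lamin C-only control (4 libraries) had the same LCS alleles without Cre and made lamin C in place of both lamins A and C. The labels give no age or sex. Because pools were sequenced, single mice are not seen, and the p-values rest on how far pools of 1 genotype differ.

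Mucin-type O-glycans start when a GALNT enzyme joins N-acetylgalactosamine (GalNAc) to a serine or threonine of a protein passing through the Golgi. C1galt1 adds galactose to that sugar, and sialyltransferases then cap the galactose or the GalNAc with sialic acid, an acidic sugar made in the cytosol by Gne and Nans and activated in the nucleus by Cmas. On the vessel lining these glycans form part of the glycocalyx and carry ligands for selectins and other sialic acid-binding lectins.

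Library totals ran from 27169784 to 35692385 estimated counts, so that 3 counts, the limit a count of 0 allows, correspond to 0.0841 to 0.110 CPM (counts scaled to the size of each library). Intervals and limits of this kind cover counting error only. The 12 endothelial markers were the most abundant list, summing to 21380 to 22390 CPM in ubiquitous progerin against 23860 to 25690 CPM in wild-type control (3 called higher and 7 lower). They summed to 22740 to 23610 CPM in VSMC progerin against 22990 to 25100 CPM for lamin C-only control (5 higher and 6 lower). All 12 macrophage markers rose in both progerin groups, with sums of 1180 to 1823 CPM in ubiquitous progerin against 94.3 to 177 CPM in wild-type control, and 843 to 1010 CPM in VSMC progerin against 85.7 to 290.1 CPM in the lamin C-only control. None of these macrophage markers was at 0 throughout. Summed adipocyte markers reached 732 to 1069 CPM in VSMC progerin, against 131 to 521 CPM in its control, with 4 of 5 called higher. Smooth muscle markers summed to 1026 to 1068 CPM in ubiquitous progerin against 572 to 929 CPM in wild-type control, and to 372 to 443 CPM in VSMC progerin against 502 to 666 CPM in its control (2 of 10 higher and 5 lower in ubiquitous progerin, 6 lower in VSMC progerin). Adventitial fibroblast markers summed to 1275 to 1412 CPM in VSMC progerin against 875 to 1239 CPM in its control (5 of 8 higher and 1 lower), and to 712 to 859 CPM in ubiquitous progerin against 909.9 to 1016 CPM in wild-type control (1 higher and 3 lower). Neutrophil markers summed to 9.71 to 11.7 CPM in ubiquitous progerin against 1.18 to 3.33 CPM in wild-type control (4 of 4 tested higher), and to 3.49 to 5.44 CPM in VSMC progerin against 0.786 to 2.64 CPM in its control (2 of 4 higher), with Mpo at 0 in all libraries. B lymphocyte and plasma cell markers summed to 5.47 to 6.76 CPM in VSMC progerin against 1.40 to 2.87 CPM in its control (3 of 4 tested higher). In ubiquitous progerin they summed to 2.34 to 3.63 CPM against 1.52 to 3.90 CPM in wild-type control (1 higher and 1 lower). Beside these marker counts, 26.3% of all genes tested were called higher and 28.3% lower in ubiquitous progerin. In VSMC progerin the shares were 19% and 23%. The part of these other cells in the results on the transferase genes was not tested, and in bulk RNA fewer cells of a type and less RNA per cell cannot be told apart. A pair of libraries stood apart. Summed erythroid markers were 5878 CPM in VSMC progerin pool 3, against at most 405 CPM in the other libraries carrying LCS alleles, and wild-type control pool 1 had a count for 14325 genes, against 15172 to 15220 in each remaining wild-type pool.

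Promoter windows from RefSeq, the 250 bases before an annotated start on GRCm38.p6, are shown for those of the members given library by library below for which the table held one. It held 39 windows, for 29 of the 42 members, and none for Galnt2, Galnt18 and St6galnac2. Each window was searched on both strands for 8 short motifs, whose matches are in capitals. Of all 32851 promoter windows, 12.4% held the TATA box letters TATAAA and 32.7% held the GC box letters GGGCGG. The core that ETS factors bind, written CCGGAAG, stood in 6.91% of the windows. The core of PU.1, written GAGGAAG, which ends like the ETS core, stood in 10.6%. The AP-1 letters TGANTCA were in 6.75% and the E-box letters CACGTG in 6.02%. The letters AGATAA, which GATA factors bind, were in 9.99%, and the KLF letters CACACCC in 6.93%. Cmah has 2 annotated starts, with windows at chr13:24327154-24327403 and chr13:24414872-24415121 (both on the plus strand). The Galnt15 window is chr14:32028853-32029102 (plus strand), that of Galnt10 chr11:57645192-57645441 (plus strand) and that of the outer of 2 Galnt6 starts chr15:100729377-100729626 (minus strand).
Cmah start 1: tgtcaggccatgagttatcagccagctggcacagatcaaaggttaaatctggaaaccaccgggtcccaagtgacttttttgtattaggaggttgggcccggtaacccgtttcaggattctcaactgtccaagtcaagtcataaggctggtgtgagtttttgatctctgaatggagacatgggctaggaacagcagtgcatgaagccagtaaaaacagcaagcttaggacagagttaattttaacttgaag
Cmah start 2: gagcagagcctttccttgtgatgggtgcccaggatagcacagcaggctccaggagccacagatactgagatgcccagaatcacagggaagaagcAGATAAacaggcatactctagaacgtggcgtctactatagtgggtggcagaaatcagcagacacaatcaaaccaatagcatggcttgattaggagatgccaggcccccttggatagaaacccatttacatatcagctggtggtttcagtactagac
Galnt15: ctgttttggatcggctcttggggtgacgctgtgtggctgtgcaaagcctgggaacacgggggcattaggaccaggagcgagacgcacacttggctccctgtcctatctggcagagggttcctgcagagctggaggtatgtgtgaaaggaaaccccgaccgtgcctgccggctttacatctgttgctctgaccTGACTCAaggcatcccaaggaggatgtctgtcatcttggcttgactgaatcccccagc
Galnt10: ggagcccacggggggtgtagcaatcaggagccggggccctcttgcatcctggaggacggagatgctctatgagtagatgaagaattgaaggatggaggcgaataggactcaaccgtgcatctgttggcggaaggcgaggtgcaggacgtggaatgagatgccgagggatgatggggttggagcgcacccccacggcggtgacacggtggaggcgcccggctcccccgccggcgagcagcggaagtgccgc
Galnt6 start 1: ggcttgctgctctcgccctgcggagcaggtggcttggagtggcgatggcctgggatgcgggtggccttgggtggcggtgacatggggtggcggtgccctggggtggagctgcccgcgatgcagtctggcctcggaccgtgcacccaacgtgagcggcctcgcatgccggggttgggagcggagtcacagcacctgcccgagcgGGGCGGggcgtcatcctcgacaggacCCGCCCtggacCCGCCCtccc
The Cmah windows held 3 and 2 CpG dinucleotides and that of Galnt15 held 8, while those of Galnt10 and Galnt6 held 20 and 22, against a median of 6 over all promoter windows. The second Cmah window matched the GATA letters 1 time, the Galnt15 window the AP-1 letters 1 time and the Galnt6 window the GC box 3 times, and the first Cmah window and the Galnt10 window matched none of the 8 motifs. The Galnt15 window precedes a RefSeq start, but the gene start in GENCODE, 32028989, lies inside it. The AP-1 match lies after that GENCODE start. The window of the other Galnt6 start, chr15:100720478-100720727 (minus strand, not shown), held 10 CpG and matched none of the motifs. A match is a description of letters, and gene-level counts cannot tell the annotated starts apart.

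The first comparison, of ubiquitous progerin against wild-type control, asks which intimal transcripts change when progerin is made in all tissues. Among the transferase genes, the initiating enzyme Galnt15 rose 4.90-fold and Galnt6, scarce in the controls, rose 26.4-fold, while most of the enzymes that elongate or sialylate the glycan fell. By the quasi-likelihood test of edgeR, Benjamini-Hochberg adjusted over all genes tested, 7 of the 33 members were called higher and 16 lower at an adjusted p under 0.05, where 26.3% of all genes tested were called higher and 28.3% lower (54.6% in either direction). The members' median log2 fold change was -0.19, against -0.005 over all genes tested. Of the 15 tested sialyltransferases 10 fell and 2 rose.

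The second comparison, of VSMC progerin against lamin C-only control, asks how the intima differs when progerin is made in smooth muscle cells. Every VSMC progerin library carries Cre and no lamin C-only control library does, so effects of progerin and of Cre cannot be told apart. Here Cmah, the hydroxylase that converts one form of activated sialic acid to another, rose 158-fold, Galnt18 rose 4.24-fold, and Galnt15 fell. In all 14 members were called higher and 6 lower by edgeR's test, where 19% of all genes tested were called higher and 23% lower (42% in either direction). The median over members was 0.07 and over all genes tested -0.03. Of the 15 tested sialyltransferases 5 rose and 4 fell.

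**Figure D1:**
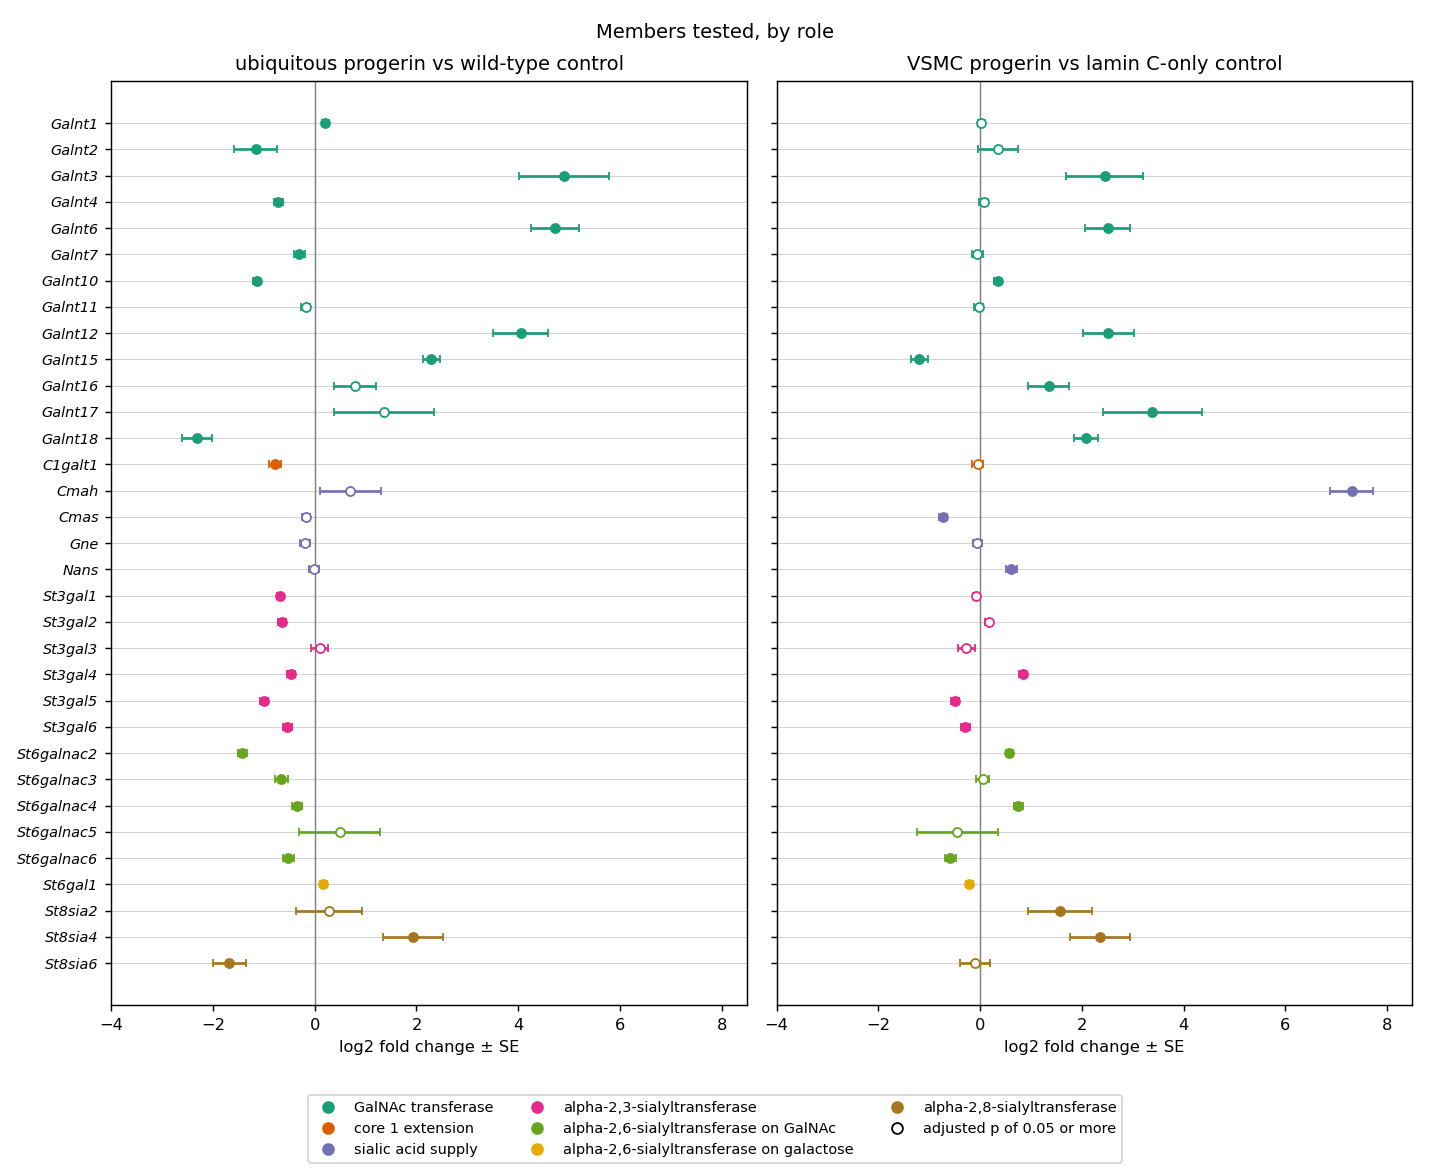
Log2 fold change ± SE (horizontal axis) of the 33 tested members, one per row and coloured by role, in ubiquitous progerin against wild-type control (left) and VSMC progerin against lamin C-only control (right). Filled points have an adjusted p under 0.05. Galnt15, Galnt10 and Galnt18 stand on opposite sides of 0 in the 2 panels, and Cmah stands alone at 7.31 on the right.

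Galnt15 (ENSMUSG00000021903, GRCm38 chromosome 14, 32028989 to 32062197, plus strand) was the most abundant member per length, at a mean of 61.0 CPM per kb of annotated exons in wild-type control. Its level was 1776, 2007 and 1884 CPM in the ubiquitous progerin libraries, against 375, 420.2, 432 and 315.5 CPM in wild-type control. In VSMC progerin it was 125, 152 and 210.3 CPM, against 419.5, 349, 321 and 396 CPM in lamin C-only control. Every ubiquitous progerin library was above, and every VSMC progerin library below, all 8 control libraries. The log2 fold changes were 2.29 ± 0.17 (SE; edgeR adjusted p = 2.5e-07) in ubiquitous progerin and -1.19 ± 0.17 (adjusted p = 0.00015) in VSMC progerin, and the difference between them, tested as a contrast in the same fit, was 3.49 ± 0.24 (adjusted p = 2.9e-07). Without VSMC progerin pool 3 the change in VSMC progerin was -1.43.

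Galnt6 (ENSMUSG00000037280, chromosome 15, 100691813 to 100729376, minus strand), a GALNT that in human cells is known to modify fibronectin, was scarce in both controls. It had 23.2, 16.8 and 20.5 CPM in ubiquitous progerin and 1.24, 0.545, 0.748 and 0.540 CPM in wild-type control. It had 6.21, 6.997 and 6.74 CPM in VSMC progerin and 0.447, 1.55, 2.22 and 0.429 CPM in lamin C-only control. All progerin libraries lay above all control libraries, and the ubiquitous ones highest. The log2 fold changes were 4.72 ± 0.47 (edgeR adjusted p = 1.5e-06) and 2.50 ± 0.44 (adjusted p = 0.00044), with a difference of 2.22 ± 0.64 (adjusted p = 0.013). An antisense gene, Galnt6os, overlaps 441 of its 3871 exonic bases and has no entry in the count table. The libraries were directional, but the strand setting of the counting is not given in the sources used here. Whether reads of Galnt6os were counted for Galnt6 therefore cannot be told.

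Galnt18 (ENSMUSG00000038296, chromosome 7, 111471661 to 111779977, minus strand), another member of the initiating family, moved the opposite way to Galnt15. Its levels were 0.682, 1.59 and 0.594 CPM in ubiquitous progerin against 4.96, 5.41, 3.71 and 4.83 CPM in wild-type control. They were 27.4, 24.3 and 14.2 CPM in VSMC progerin against 5.03, 5.53, 5.72 and 4.41 CPM in lamin C-only control. Neither progerin group overlapped its control. The log2 fold change was -2.31 ± 0.30 (edgeR adjusted p = 3.1e-06) in ubiquitous progerin and 2.08 ± 0.24 (adjusted p = 1.3e-06) in VSMC progerin, a difference of -4.40 ± 0.39 (adjusted p = 4.1e-08).

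Galnt10 (ENSMUSG00000020520, chromosome 11, 57645442 to 57787514, plus strand) belongs, from work on rat and human enzymes, to the GALNTs that prefer peptides already carrying GalNAc. It had 30.1, 25.5 and 26.9 CPM in ubiquitous progerin against 60.9, 59.1, 62.6 and 59.5 CPM in wild-type control, and 82.6, 79.9 and 70.0 CPM in VSMC progerin against 58.7, 62.2, 62.9 and 60.03 CPM in lamin C-only control. The controls lay close together, with the ubiquitous progerin libraries below them and the VSMC progerin libraries above. The log2 fold changes were -1.14 ± 0.07 (edgeR adjusted p = 1.2e-10) and 0.35 ± 0.07 (adjusted p = 0.00037), and their difference was -1.49 ± 0.10 (adjusted p = 5.1e-10).

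Galnt2 (ENSMUSG00000089704, chromosome 8, 124231391 to 124345724, plus strand), whose protein is known to act on regulators of blood lipids, is uncertain. It shares 3854 of its 4282 annotated exonic bases, on the same strand, with a second entry of the count table, Galnt2l, and the counting could divide reads between them. Listed alone, Galnt2 had 19.2, 16.1 and 16.2 CPM in ubiquitous progerin against 16.6, 46.8, 38.8 and 51.3 CPM in wild-type control, where pool 1 lay among the progerin libraries. In VSMC progerin it had 74.0, 40.2 and 26.9 CPM against 31.3, 48.9, 31.6 and 36.1 CPM in lamin C-only control. These groups overlapped. Its log2 fold change was -1.16 ± 0.42 (edgeR adjusted p = 0.038) in ubiquitous progerin, a call lost when any library other than wild-type control pool 1 was left out (-1.24 to -0.99) and at -1.41 without that pool, and 0.34 ± 0.40 (adjusted p = 0.53) in VSMC progerin. Summed, the 2 entries had 60.2, 55.4 and 60.9 CPM in ubiquitous progerin against 117, 110.5, 108 and 123 CPM in wild-type control, and 144, 151 and 134 CPM in VSMC progerin against 115, 120.3, 116 and 110.0 CPM in lamin C-only control. The groups no longer overlapped. In that setting, chosen after seeing the data, the log2 fold changes were -0.96 ± 0.06 (adjusted p = 2.2e-10) and 0.31 ± 0.06 (adjusted p = 4e-04).

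**Figure D2:**
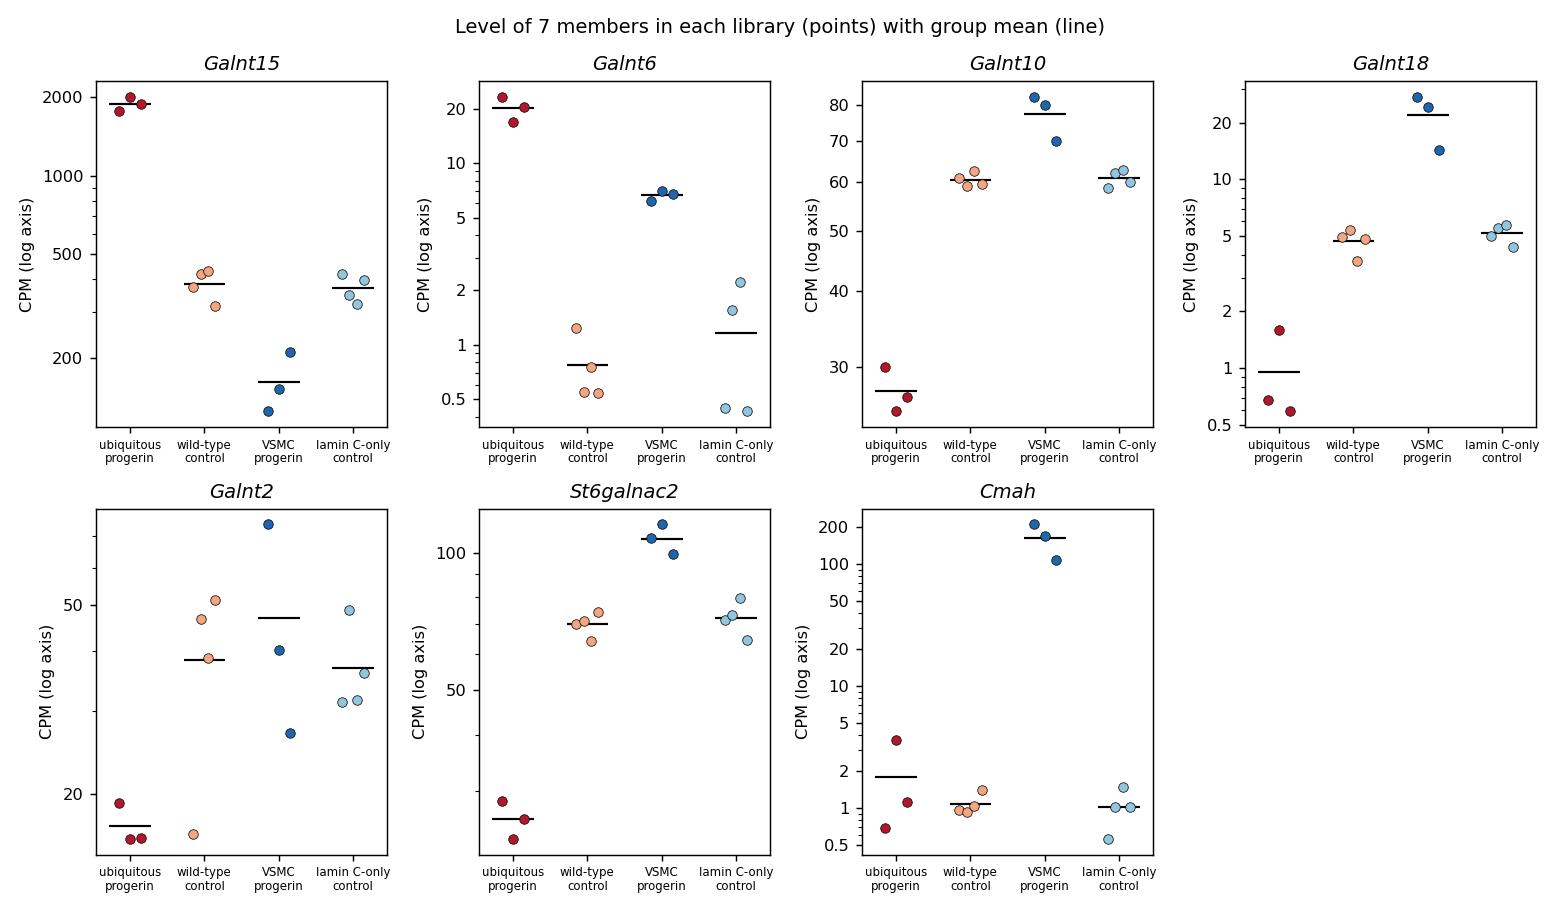
Level in CPM (vertical log axis) of the 7 members described library by library, with each library as a point and the group mean as a line, in ubiquitous progerin, wild-type control, VSMC progerin and lamin C-only control. The control groups sit at like levels, and Cmah is above 100 CPM in VSMC progerin alone, the ubiquitous progerin libraries being at 0.682 to 3.60 CPM.

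The remaining GALNT genes were fewer in transcripts or changed less. Galnt12 and Galnt3, the enzyme known to protect the phosphate hormone FGF23 from cleavage, rose in both progerin groups, over controls near the detection limit. Galnt12 had 2.03 to 2.42 CPM in ubiquitous progerin against 0.0651 to 0.192 CPM in wild-type control, and 1.14 to 2.16 CPM in VSMC progerin against 0.168 to 0.373 CPM in lamin C-only control. Galnt3 had 1.50 to 2.87 CPM in ubiquitous progerin against 0 in 3 wild-type libraries and 0.260 CPM in the other, and 1.28 to 1.51 CPM in VSMC progerin against 0.0838 to 0.429 CPM in lamin C-only control. Groups did not overlap for either gene. Their fitted log2 fold changes (4.05 and 4.90 in ubiquitous progerin, 2.52 and 2.45 in VSMC progerin) rest on few counts and depend on the prior count. Galnt16 and Galnt17 were called higher in VSMC progerin, at 2.44 to 4.56 and 0.404 to 1.62 CPM against 0.653 to 2.79 and 0 to 0.224 CPM in lamin C-only control. Galnt16 overlapped between the groups and lost its call without VSMC progerin pool 1 (1.13, edgeR adjusted p = 0.059), and Galnt17 lost its call without pool 2 (2.72, adjusted p = 0.061).

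Among the more abundant initiating enzymes, Galnt4 fell by 0.72 on the log2 scale in ubiquitous progerin (20.3 ± 0.3 CPM against 33.4 ± 4.0 CPM in wild-type control, SD; edgeR adjusted p = 7.8e-07), and Galnt7, which like Galnt10 prefers glycosylated peptides, fell by 0.30 (adjusted p = 0.026). Galnt1, a broadly expressed family member, had a log2 fold change of 0.21 ± 0.07 (adjusted p = 0.016) in ubiquitous progerin. The Galnt7 call was lost without any one of ubiquitous progerin pools 1 and 2 and wild-type control pools 2 and 3 (-0.31 to -0.25), and that of Galnt1 without ubiquitous progerin pool 1 (0.20) or wild-type control pool 4 (0.15). These 3 genes did not pass the test in VSMC progerin, with log2 fold changes of 0.07, -0.06 and 0.03 and adjusted p of 0.56, 0.71 and 0.79. Galnt11, which in kidney modifies receptors of the LDL receptor family, was called in neither (-0.18 and -0.03). Galnt4 shares 420 of its 5089 exonic bases with Poc1b on the same strand, and Poc1b averaged 14.97 CPM in ubiquitous progerin and 13.3 CPM in wild-type control. In all, 5 GALNT genes rose and 5 fell of 13 tested in ubiquitous progerin, where 26.3% of all genes tested were called higher and 28.3% lower. In VSMC progerin 7 rose and 1 fell, where 19% of all genes tested were called higher and 23% lower.

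Levels between genes were compared per kb of annotated exons. Galnt15 made up 87.2% ± 1.2 (SD, n = 3) of the summed CPM per kb of the GALNT family in ubiquitous progerin, against 54.4% ± 3.4 (n = 4) in wild-type control. Its share was 28.1% ± 8.2 (n = 3) in VSMC progerin, against 53.0% ± 3.5 (n = 4) in lamin C-only control. Neither progerin group overlapped its control, at 85.9% to 88.4% against 49.5% to 57.5%, and 20.5% to 36.7% against 50.0% to 56.9%. The family sum averaged 342 CPM per kb in ubiquitous progerin and 112 in wild-type control, and 91.9 in VSMC progerin and 110.4 in lamin C-only control. With Galnt15 left out the sums were 43.7 in ubiquitous progerin and 50.7 in wild-type control, and 66.3 in VSMC progerin and 51.7 in lamin C-only control. With the counts of Galnt2l added to Galnt2, an alternative chosen after seeing the data, the Galnt15 share was 84.8% ± 1.3 in ubiquitous progerin against 46.9% ± 3.6 in wild-type control, and 22.4% ± 5.8 in VSMC progerin against 45.5% ± 3.3 in lamin C-only control. These shares were given no test of their own.

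**Figure D3:**
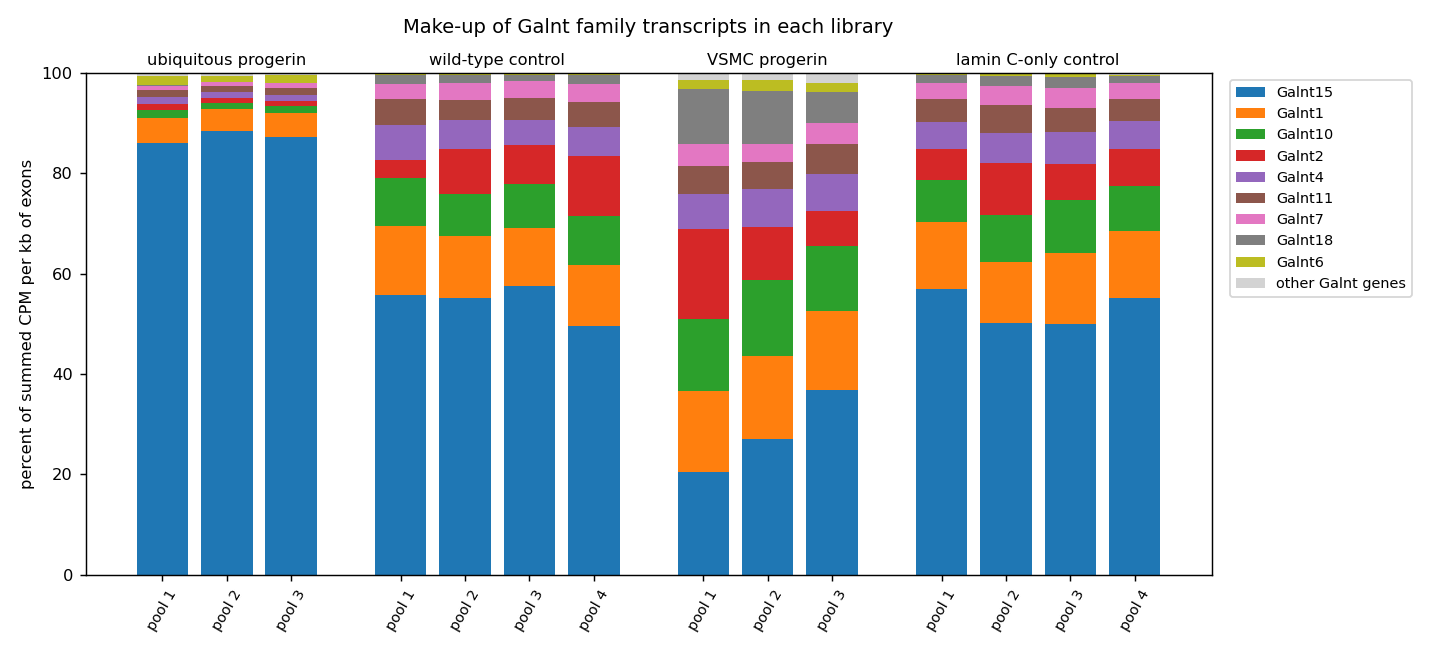
Share (percent, vertical axis) of each GALNT gene in the family's summed CPM per kb of exons, with one stacked bar per library. Galnt15 takes 85.9% to 88.4% of the bar in ubiquitous progerin, 49.5% to 57.5% in wild-type control, 20.5% to 36.7% in VSMC progerin and 50.0% to 56.9% in lamin C-only control.

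C1galt1, which adds the galactose of the core 1 structure, fell in ubiquitous progerin to 22.8, 18.3 and 20.6 CPM, against 30.8, 34.7, 34.8 and 41.0 CPM in wild-type control (log2 fold change -0.78 ± 0.11, edgeR adjusted p = 4.7e-06). In VSMC progerin it had 31.1 to 40.9 CPM against 33.1 to 37.8 CPM in lamin C-only control and did not pass the test (-0.05 ± 0.11, adjusted p = 0.75). The effects differed by -0.73 ± 0.15 (adjusted p = 0.00051).

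Of the sialic acid supply genes, Cmah (ENSMUSG00000016756, chromosome 13, 24327404 to 24477377, plus strand) stood apart. Its enzyme hydroxylates activated N-acetylneuraminic acid to the N-glycolyl form, which mice make and humans, whose gene is inactive, do not. It had 211, 169.6 and 108 CPM in VSMC progerin, against 0.559, 1.03, 1.49 and 1.011 CPM in lamin C-only control. It had 0.682, 3.60 and 1.12 CPM in ubiquitous progerin, against 0.957, 0.929, 1.04 and 1.40 CPM in wild-type control. The VSMC progerin libraries were all above 100 CPM and every other library was below 4 CPM. The log2 fold change was 7.31 ± 0.43 (edgeR adjusted p = 1.8e-07) in VSMC progerin, 7.53 without pool 3, and 0.70 ± 0.59 (adjusted p = 0.35) in ubiquitous progerin, and the effects differed by -6.60 ± 0.80 (adjusted p = 5.4e-05).

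The genes around Cmah were looked at after its values were seen. Within 1000 kb of its start 19 other genes were tested. In VSMC progerin 2 were called higher and 7 lower, where 19% of all genes tested were called higher and 23% lower. Their log2 fold changes ran from -5.24 to 0.97, and both ends were scarce genes resting on few counts. H2bc8 averaged 0.0424 CPM in VSMC progerin against 1.80 CPM in lamin C-only control, and H4c8 0.636 CPM against 0.322 CPM. The nearest neighbours were Carmil1, with a log2 fold change of 0.48 (edgeR adjusted p = 0.0041), and Ripor2, with -0.50 (adjusted p = 0.018). No neighbour reached the change of Cmah.

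**Figure D4:**
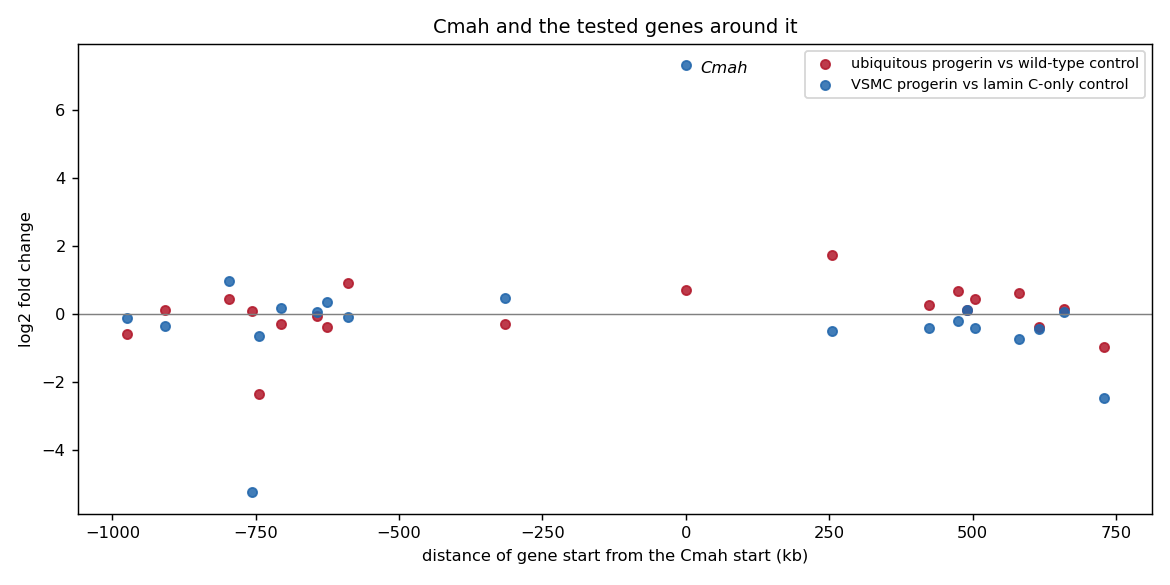
Log2 fold change (vertical axis) of Cmah and the 19 tested genes within 1000 kb of it against the distance of their starts from the Cmah start in kb, for both progerin comparisons. In VSMC progerin Cmah is at 7.31 and its neighbours lie between -5.24 and 0.97, the ends being the scarce genes H2bc8 and H4c8.

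Cmas, which activates sialic acid with CMP, was the most abundant supply gene per kb of exons in wild-type control (36.1 CPM per kb) and fell in VSMC progerin, to 93.7, 104 and 108 CPM against 158, 184, 177 and 161 CPM in lamin C-only control (log2 fold change -0.74 ± 0.08, edgeR adjusted p = 2.4e-07). In ubiquitous progerin it had 148, 148 and 156 CPM against 145, 185, 176 and 175 CPM in wild-type control, and the change missed the threshold (-0.18 ± 0.08, adjusted p = 0.059). Nans, which condenses the sialic acid skeleton, rose in VSMC progerin, to 21.1, 25.7 and 21.3 CPM against 14.1, 16.7, 14.0 and 14.4 CPM in lamin C-only control (0.62 ± 0.10, adjusted p = 6.2e-05). In ubiquitous progerin its log2 fold change was -0.02 ± 0.10 (adjusted p = 0.91). Nans overlaps exons of Trim14 on the opposite strand over 1356 of 4581 bases, and the strand setting of the counting is not given in the sources used here. Gne, the rate-limiting first enzyme, was called in neither comparison (-0.19 ± 0.09 and -0.05 ± 0.09).

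The α2,3-sialyltransferases, which cap galactose, fell in ubiquitous progerin, with 5 of 6 called lower, where 28.3% of all genes tested were. St3gal5, which makes the ganglioside GM3, fell by 1.00 on the log2 scale, just short of the size chosen for a library-by-library account, to 66.4, 56.2 and 61.2 CPM against 121, 128, 126 and 114 CPM in wild-type control (edgeR adjusted p = 1.5e-09). St3gal1 and St3gal2, which cap core 1 O-glycans, fell by 0.69 and 0.64, to means of 192 and 61.5 CPM against 309 and 96.2 CPM in wild-type control. In VSMC progerin St3gal5 fell by 0.49 (adjusted p = 2.2e-05), and St3gal1 and St3gal2 did not pass the test (-0.07 and 0.17, adjusted p = 0.35 and 0.05). St3gal4, which in mice helps make selectin ligands, moved in opposite directions: it had 56.3, 51.8 and 59.1 CPM in ubiquitous progerin against 72.6, 78.2, 74.5 and 81.6 CPM in wild-type control, and 144, 134 and 114 CPM in VSMC progerin against 68.0, 75.8, 76.1 and 71.9 CPM in lamin C-only control. Neither progerin group overlapped its control, and the effects differed by -1.30 ± 0.11 (adjusted p = 7.8e-09). St3gal6, also an enzyme of selectin ligands, fell in both (-0.54 and -0.29), the second call being lost without VSMC progerin pool 1 or pool 3 (-0.25 and -0.24), and it overlaps Dcbld2 on the opposite strand over 1603 of 6172 bases. St3gal3 passed the test in neither.

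Sialic acid on the GalNAc itself is added by the St6galnac family. St6galnac2 (ENSMUSG00000057286, chromosome 11, 116675303 to 116694868, minus strand), which sialylates the GalNAc of core 1 glycans, had 28.5, 23.6 and 26.04 CPM in ubiquitous progerin, against 69.9, 71.1, 64.3 and 74.4 CPM in wild-type control. It had 108, 116 and 99.7 CPM in VSMC progerin, against 71.4, 73.2, 79.7 and 64.6 CPM in lamin C-only control. The ubiquitous progerin libraries were below and the VSMC progerin libraries above all control libraries. The log2 fold changes were -1.42 ± 0.08 (edgeR adjusted p = 4.5e-11) and 0.58 ± 0.08 (adjusted p = 5.3e-06), and they differed by -2.0001 ± 0.11 (adjusted p = 6.8e-11). The count table has a second entry, St6galnac2.1, annotated under the same gene name and sharing 383 of 5790 exonic bases. With both summed the changes were -1.46 and 0.56.

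St6galnac4, which forms the disialylated core 1 structure, followed the same pattern at smaller size (17.9 to 20.8 CPM in ubiquitous progerin against 22.4 to 26.3 CPM in wild-type control, and 33.2 to 42.8 CPM in VSMC progerin against 22.1 to 24.5 CPM in lamin C-only control). Its log2 fold changes were -0.35 ± 0.10 (edgeR adjusted p = 0.0046) and 0.75 ± 0.09 (adjusted p = 2e-06). St6galnac6, an enzyme of gangliosides, fell in both (-0.52 and -0.59), and St6galnac3 fell in ubiquitous progerin (-0.66, adjusted p = 0.00019) with 0.05 in VSMC progerin (adjusted p = 0.78). St6galnac5 was under 1 CPM in every library and was called in neither.

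St6gal1, which adds α2,6-linked sialic acid to galactose, mostly on N-glycans, changed little. It had 158, 152 and 161 CPM in ubiquitous progerin against 145, 152, 138 and 123 CPM in wild-type control, which overlapped, and 114, 118 and 134 CPM in VSMC progerin against 137, 146, 137 and 144 CPM in lamin C-only control. The log2 fold changes were 0.17 ± 0.07 (edgeR adjusted p = 0.046) and -0.21 ± 0.07 (adjusted p = 0.021). The first call was lost without any ubiquitous progerin pool or wild-type control pools 3 or 4 (0.11 to 0.19), and the second without VSMC progerin pools 1 or 2 or lamin C-only control pool 2 (-0.14 to -0.19).

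The St8sia enzymes, which add sialic acid to sialic acid, were scarce. St8sia4, a polysialyltransferase, rose in both, with 3.24, 2.11 and 1.54 CPM in ubiquitous progerin against 1.45, 0.384, 0.358 and 0.222 CPM in wild-type control, and 3.56, 2.06 and 2.23 CPM in VSMC progerin against 0.307, 0.187, 0.596 and 0.950 CPM in lamin C-only control. Its log2 fold changes were 1.93 ± 0.59 (edgeR adjusted p = 0.0088), or 2.82 without wild-type control pool 1 and 1.60 (adjusted p = 0.055) without ubiquitous progerin pool 1, and 2.35 ± 0.59 (adjusted p = 0.0031). St8sia2, the other polysialyltransferase, was called higher in VSMC progerin (1.14 to 1.84 CPM against 0.184 to 0.587 CPM in lamin C-only control, adjusted p = 0.049), a call lost without any 1 of the 7 libraries compared (1.30 to 1.71). St8sia6, which in mice makes ligands of Siglec-E, fell in ubiquitous progerin to 1.08 to 1.61 CPM against 2.67 to 6.12 CPM in wild-type control (-1.68 ± 0.32, adjusted p = 0.00017), and in VSMC progerin it had -0.10 ± 0.29 (adjusted p = 0.81).

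The progerin comparisons differ in Lmna alleles and in Cre as well as in where progerin was made, and these cannot be told apart. The comparisons share no library. Of the 33 tested members, 29 were called in at least one of them, 14 in both and 4 in neither (Galnt11, Gne, St3gal3 and St6galnac5). The 4 in neither are 12.1% of the members tested, against 30.6% of all genes tested. Called in the same direction in both were 21.2% of the members tested, against 16.5% of all genes tested. Galnt10, Galnt18, St3gal4, St6galnac2 and St6galnac4 fell in ubiquitous progerin and rose in VSMC progerin, 15.2% of the members tested where 4.27% of all genes tested did so. Galnt15 and St6gal1 did the reverse. These 7 are 21.2% of the members tested, and 10.6% of all genes tested were called in opposite directions. Galnt3, Galnt6, Galnt12 and St8sia4 rose in both (12.1% of the members tested, 7.89% of all genes tested), beside the 12 macrophage markers, whose part was not tested. St3gal5, St3gal6 and St6galnac6 fell in both, 9.09% of the members tested and near the 8.63% of all genes tested. The difference between the effects was called for 18 members by edgeR's test, 4 higher and 14 lower, where 22.4% of all genes tested were called higher and 21.8% lower (44.2% in either direction). Each of the 7 members called in opposite directions was among the 18. Opposite calls nearly fix the outcome of this contrast, which subtracts one effect from the other, so this adds no separate evidence.

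The third comparison, of lamin C-only control against wild-type control, concerns the LCS alleles without progerin. It shares its libraries with the other comparisons. No member was called by edgeR, where 0.175% of all genes tested were (0.0911% higher and 0.0841% lower), and 1 member, Galnt3 (1.86), had an unadjusted p under 0.05. DESeq2 and limma voom also called none, each with 1 member at an unadjusted p under 0.05. For the 22 members averaging at least 5 CPM in the controls, the log2 difference ran from -0.15 to 0.11, with SE of 0.06 to 0.37. For the 11 members under 5 CPM it ran from -0.49 to 1.86.

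Other genes of the pathway came from 5 lists. Their counts stand beside shares over all genes tested of 26.3% higher and 28.3% lower in ubiquitous progerin, and of 19% higher and 23% lower in VSMC progerin. In the core O-glycan extension list, 3 of 12 tested genes rose and 7 fell in ubiquitous progerin, and 6 rose and 2 fell in VSMC progerin. The 3 that rose are a share near the 26.3% over all genes. Gcnt1, the enzyme of core 2 branching, fell in both, to 157 ± 23 CPM in ubiquitous progerin against 333 ± 25 CPM in wild-type control and to 156 ± 32 CPM in VSMC progerin against 351 ± 18 CPM in lamin C-only control (SD; log2 fold changes -1.09 and -1.17). Chst1, a sulfotransferase of glycan chains, was opposed, at 5.92 CPM in ubiquitous progerin against 10 CPM in wild-type control and at 34.96 CPM in VSMC progerin against 10.5 CPM in lamin C-only control, with a difference of effects of -2.50 (edgeR adjusted p = 7.8e-09). Gcnt4, Fut7 and Chst2 were called higher from under 1 CPM, the first pair in ubiquitous progerin and Chst2 in both.

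In the list of sialic acid transport and turnover, 5 of 11 tested genes rose and 4 fell in ubiquitous progerin, and 4 rose and 3 fell in VSMC progerin. The 3 that fell in VSMC progerin are a share near the 23% over all genes. Renbp, which interconverts precursors of sialic acid, rose in both (1.50 and 1.38 on the log2 scale), as did Npl, which cleaves sialic acid (3.38 and 2.58). Npl was scarce in the controls, at 0 to 0.513 CPM in wild-type control and 0.0559 to 1.21 CPM in lamin C-only control. Siae, which removes acetyl groups from sialic acid, fell by 1.16 and by 0.38. Neu3, a sialidase that acts on gangliosides, rose in ubiquitous progerin, to 29.7 CPM against 20.9 CPM in wild-type control, and fell in VSMC progerin, to 10.5 CPM against 21.99 CPM in lamin C-only control. Its effects differed by 1.57 (edgeR adjusted p = 3.5e-08).

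Of the 11 tested sialic acid-binding lectins, 8 rose and none fell in ubiquitous progerin, and 10 rose and none fell in VSMC progerin, with median log2 fold changes of 3.00 and 2.27, against -0.005 and -0.03 over all genes tested. Siglec1, a lectin of macrophages, Siglece, an inhibitory receptor of myeloid cells, and Pilra, a myeloid receptor of sialylated O-glycoproteins, were among them. Siglec1 averaged 9.15 CPM in ubiquitous progerin against 1.15 CPM in wild-type control, and 4.18 CPM in VSMC progerin against 0.864 CPM in lamin C-only control. Most genes of this list are leukocyte genes and rose beside the macrophage markers given above, whose part was not tested. Of the selectins of endothelial cells, both chosen after their values were seen, Selp rose by 0.53 in ubiquitous progerin and by 0.45 in VSMC progerin on the log2 scale. Sele had -0.05 (edgeR adjusted p = 0.82) in ubiquitous progerin and rose by 0.74 (adjusted p = 0.0021) in VSMC progerin.

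Among mucin-type glycoproteins and carriers of polysialic acid, 4 of 14 tested genes rose and 4 fell in ubiquitous progerin, and 8 rose and 2 fell in VSMC progerin. In ubiquitous progerin these shares are near those of all genes tested (26.3% higher and 28.3% lower), and in VSMC progerin 19% and 23% of all genes were called higher and lower. Selplg, the leukocyte ligand of P-selectin, rose in both (4.02 and 2.65), as did the hyaluronan receptor Cd44 (1.55 and 1.39) and the co-receptor Nrp2 (2.45 and 2.23). Ncam1, the best known carrier of polysialic acid, fell in ubiquitous progerin to 51.4 ± 5.2 CPM against 106 ± 12 CPM in wild-type control (SD; edgeR adjusted p = 1.2e-08); Schwann and neuronal markers, of which it is one, summed to 56.4 to 65.7 CPM against 105 to 136 CPM in wild-type control, with 3 of 3 tested called lower, and their part was not tested. Podxl and Cd34, mucin-like sialoglycoproteins of endothelium chosen after their values were seen, fell in ubiquitous progerin (-1.34 and -0.48) and rose in VSMC progerin (0.80 and 0.46). Emcn, an endothelial mucin also on the endothelial marker list and likewise chosen after its values were seen, went the other way, with 1.17 (edgeR adjusted p = 1.8e-05) in ubiquitous progerin and -0.56 (adjusted p = 0.0092) in VSMC progerin. Of the 9 ganglioside genes, 5 rose and 2 fell in ubiquitous progerin, and 4 rose and 1 fell in VSMC progerin, beside 26.3% and 28.3%, and 19% and 23%, over all genes. The synthases B4galnt1 (2.43 and 2.25) and B4galt6 (1.89 and 1.65) rose in both, and Ugcg, which makes glucosylceramide, rose in ubiquitous progerin (1.03, adjusted p = 1.9e-09) with 0.04 in VSMC progerin (adjusted p = 0.73).

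**Figure D5:**
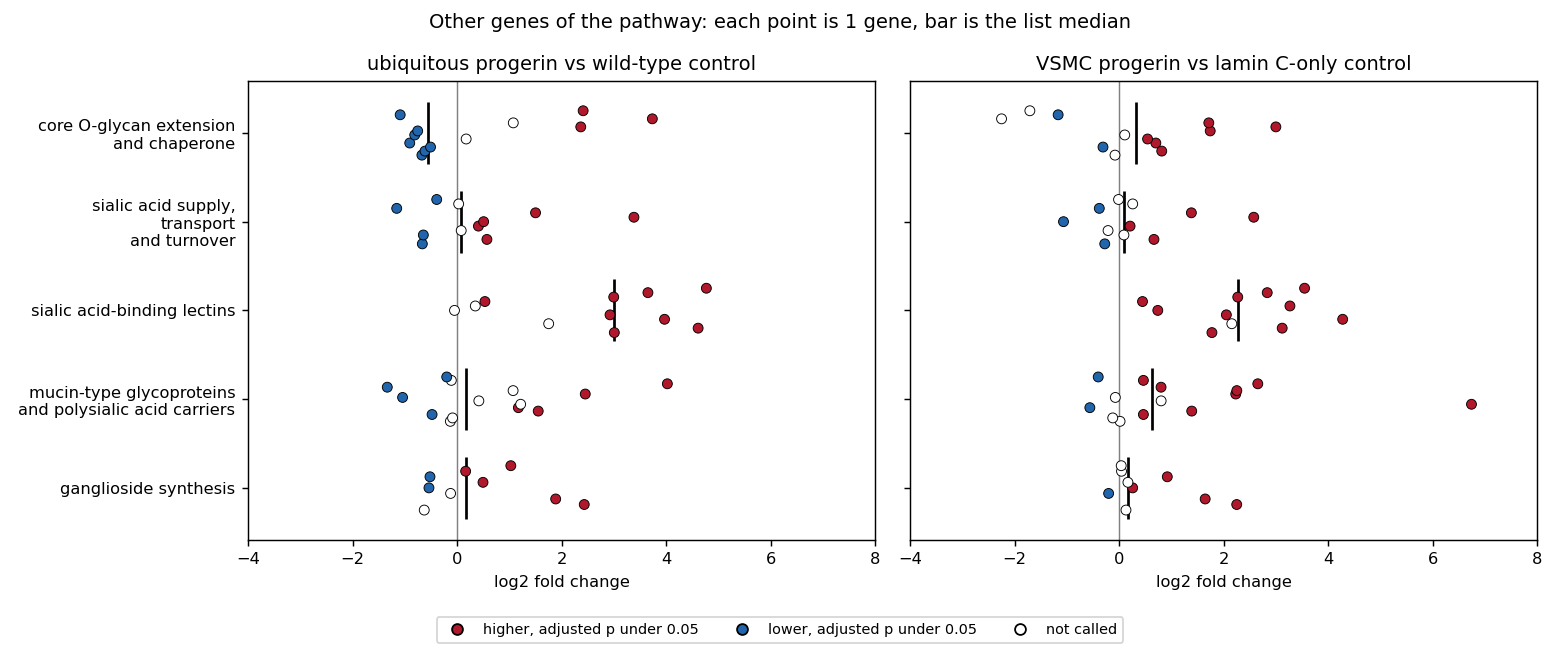
Log2 fold change (horizontal axis) of each tested gene of the 5 lists, with 1 point per gene and a bar at the list median, in ubiquitous progerin against wild-type control (left) and VSMC progerin against lamin C-only control (right). Red points were called higher, blue points lower and open points not called. The lectin list has its median at 3.00 on the left and 2.27 on the right.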

How the data were processed

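Polyadenylated RNA from 100 ng of total RNA per pool was made into directional libraries, per the labels' protocols. The authors deposited RSEM estimated counts per gene, which need not be whole, and log2 values normalised with limma for part of the genes. RSEM 1.2.28, STAR 2.7.10b, cutadapt 4.1, Trim Galore 0.6.10 and limma, with GRCm38, are named in the submitters' processing notes. For the annotation release, strand setting and filters the entry is: not given in the sources used here. RSEM divides reads shared by overlapping genes, which can shift counts between them.

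Estimated counts were rounded, filtered with filterByExpr (minimum count 10, minimum total 15), scaled by TMM and tested with the quasi-likelihood test of edgeR 4.0.16 (R 4.3.3) in 1 fit of all 14 libraries grouped by the genotype in their labels, with Benjamini-Hochberg adjustment over 14269 genes. The test was also run on simulated counts in which a small set of well-counted genes was changed and all others were not. That setting differs from these data, where far more genes were called and several members were scarce, and its outcome is not used here. Genes were called at an adjusted p under 0.05. The SE was taken from the size of the log2 fold change and the F statistic, and CPM are TMM-scaled. Positions and exon lengths are from GENCODE M21 (GRCm38). A library-by-library account was fixed for members called in a progerin comparison with a log2 fold change of 1 or more in size and a mean of at least 5 CPM in 1 group. Pathway genes were named up to 3 per list and comparison by smallest p among called genes of that size, and any further gene is marked in the text as picked later. Alternatives were DESeq2 1.42.0, limma 3.58.1 voom, the deposited log2 values, other scaling and filters, the groups compared alone, leaving out each library, and summed overlapping entries. The members and lists were chosen with earlier results of these data known.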

Additional observations from a re-analysis of the deposited data

Results flagged for a closer look

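In 5 of 66 control groups of 4 libraries, 1 library lay far from the other libraries of its group, where chance flags about 1 in 20. That rate need not hold for scarce genes. With Galnt3 at 0 in the other wild-type pools, any count would set a library apart. St8sia2 (1.31 CPM) and St8sia4 (1.45 CPM) were high in wild-type control pool 1. Galnt3 was at 0.260 CPM in wild-type control pool 3 and at 0 in the other wild-type pools, St6galnac3 was at 30.6 CPM in wild-type control pool 2, and Nans was at 16.7 CPM in lamin C-only control pool 2.

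The ubiquitous progerin and VSMC progerin effects differed for 18 of the 33 members tested (54.5%), by the test of the difference itself. Of all genes tested, 44.2% were called by that test. The differences are given as ubiquitous minus VSMC on the log2 scale. Among the initiating enzymes the difference was 3.49 for Galnt15, 2.22 for Galnt6, -0.79 for Galnt4, -1.49 for Galnt10 and -4.40 for Galnt18. It was -0.73 for C1galt1, -6.60 for Cmah, 0.56 for Cmas and -0.63 for Nans. Among the St3gal genes it was -0.61 for St3gal1, -0.82 for St3gal2, -1.30 for St3gal4 and -0.50 for St3gal5. It was 0.38 for St6gal1, -2.0001 for St6galnac2, -0.71 for St6galnac3, -1.10 for St6galnac4 and -1.58 for St8sia6.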

How the results depend on the processing

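The 61 called member values were recomputed under 23 settings, 1082 values in all. Of these 1043 kept their direction and call, 39 lost the call and 0 changed sign. The lost calls were those of Galnt1, Galnt2, Galnt7, St6gal1 and St8sia4 in ubiquitous progerin and of Galnt16, Galnt17, St3gal6, St6gal1 and St8sia2 in VSMC progerin, and those that leaving out a library ended are given with their values above. With no filter on low counts St6gal1 in ubiquitous progerin (0.17, adjusted p = 0.057) and St8sia2 in VSMC progerin (1.56, adjusted p = 0.06) were lost. With the compared groups fitted alone Galnt2 (-1.16, adjusted p = 0.053) and St6gal1 (0.17, adjusted p = 0.055) were lost in ubiquitous progerin. Leaving out each library in turn gave 4 to 7 members higher and 14 to 17 lower in ubiquitous progerin, 12 to 14 higher and 4 to 6 lower in VSMC progerin, 4 to 5 higher and 14 to 15 lower in the difference of effects, and 0 in lamin C-only control against wild-type control. The 4 members higher in ubiquitous progerin came without its pool 1. There Galnt1, St6gal1 and St8sia4 lost their calls (edgeR adjusted p = 0.057, 0.097 and 0.055). Why these calls depended on that pool was not tested. The labels do not say that a pool number marks a shared batch. Over 19 same-number pairs the correlation of deviations was -0.06 to 0.02, 0 exceeded 0.1, and 0 of 14 libraries correlated best with their own number. These correlations cannot tell whether pools of the same number were handled together. With the pool number as a replicate block 7 members were higher and 16 lower in ubiquitous progerin, 14 higher and 6 lower in VSMC progerin, 4 higher and 14 lower in the difference of effects, and 0 in lamin C-only control against wild-type control. Galnt2 (-1.06, adjusted p = 0.11), St6gal1 (0.15, adjusted p = 0.097) and St8sia2 (1.38, adjusted p = 0.095) lost their calls under the block, by edgeR, while Galnt16 (1.06, adjusted p = 0.026) and Cmas (-0.18, adjusted p = 0.029) in ubiquitous progerin and St3gal2 (0.20, adjusted p = 0.023) in VSMC progerin gained one. Depth limits the members under 1 CPM, where a few counts set the value.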
